A study of Arabidopsis thaliana with 24 samples.

Results

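Gene expression in seedlings of the long-period Arabidopsis mutant rve8-1 was compared between harvests around subjective dawn and harvests around subjective dusk. The comparison used 8 of the 24 arrays of a circadian time course. Around dawn stands for circadian time (CT) 20, harvested after 92 and 116 h in continuous light, and CT0, harvested after 72 and 96 h. Around dusk stands for CT8, harvested after 80 and 104 h, and CT12, harvested after 84 and 108 h. Each side thus had 4 arrays, 2 for each circadian time, and values of single arrays are given below in this order of harvests. rve8-1 is a T-DNA insertion line, a single mutant allele of RVE8 in the Columbia background, and the wild type Col was harvested at the same hours. Whole seedlings of both genotypes were grown for 7 days in cycles of 12 h light and 12 h dark and then kept in continuous light for 72 to 116 h until harvest, with about 50 plants in each sample. Circadian time 0 falls at 72 and 96 h, the subjective dawns, so that dawn and dusk name the hour of harvest and not the state of the mutant's own clock. A gene was kept when its level, a log2 value, exceeded 4.5 in at least 4 of the 12 rve8-1 arrays, and 19018 of 30237 genes were kept. The day 4 and day 5 arrays of a circadian time served as replicates of each other. Nothing says that they came from independently grown sets of plants, so p values measure only the spread between these samples. Because rve8-1 has a long period, its day 4 and day 5 arrays of a circadian time need not share a phase of its clock. The spread between replicates can include such a drift.

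The circadian clock of Arabidopsis is built from transcription factors that act on one another in loops. CCA1 and LHY are expressed in the morning and repress evening genes such as TOC1, the pseudo-response regulators PRR9, PRR7 and PRR5 follow one another through the day and repress CCA1 and LHY, and a complex of ELF3, ELF4 and LUX acts in the evening. RVE8 is a relative of CCA1 that activates evening genes, and it works together with the LNK coactivators. Through such factors the clock times growth, light harvesting, pigment synthesis, starch use and the response to cold.

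RVE8 (At3g09600) itself was checked first. It lay between 3.74 and 4.56 (mean, 4.13 ± 0.39, SD, n = 4) around dawn and between 3.33 and 4.2 (3.80 ± 0.38) around dusk in rve8-1, against 7.16 to 7.37 around dawn and 4.28 to 5.36 around dusk in Col. It was lower in rve8-1 in 12 of 12 pairs of arrays of the same hour and passed the expression threshold on 3 of the 12 rve8-1 arrays, so it was not kept. The 25th percentiles of the rve8-1 arrays lay between 3.76 and 4.1 and their maxima between 13.57 and 13.88. The SD between the arrays of a circadian time had a median of 0.191 over genes. Over the kept genes, arrays within the dawn side correlated at 0.962 to 0.977, arrays within the dusk side at 0.965 to 0.988, and arrays of different sides at 0.948 to 0.978, a description over genes, which are not independent. Markers of cell types did not pass the test in either direction, although 1 root marker was called lower with the day as a replicate block and 1 mesophyll marker higher without the 104 h array. The 3 kept mesophyll markers had a mean level of 12.69 to 12.94 per array around dawn and 12.40 to 12.70 around dusk, and the 7 root markers, of which 6 were kept, 6.19 to 6.50 around dawn and 6.42 to 6.69 around dusk. In RNA from whole seedlings, fewer cells of a type and less RNA per cell cannot be told apart.

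The windows were set against the clock genes. In Col, CCA1 had its highest mean at CT0, whereas in rve8-1 it was highest at CT4 and lowest at CT16. In the mutant, CCA1 therefore reached neither its peak nor its trough in either window, and the same held for LHY, with its peak at CT4 and its trough at CT16, and for TOC1, with its peak at CT16 and its trough at CT4.

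Between the windows, 923 genes (4.85% of the kept genes) had an adjusted p under 0.05 in the limma fit, which took 1 mean for each circadian time. Of these, 336 genes (1.77%) were higher around dawn and 587 (3.09%) lower. The difference reached at least 1 log2 unit in 237 called genes (1.25%), 74 of them higher and 163 lower. At an unadjusted p under 0.05 there were 3139 genes. The differences of called genes ran from -3.16 to 2.48, with a median size of 0.72, against 0.14 over all kept genes, whose median difference was -0.032. The arrays of the windows did not overlap for 738 of the called genes (80.0%) and for 1795 of all kept genes (9.44%). All 923 called genes had the same direction on each of the days that entered the call, with a median size of 0.76 on day 4 and 0.69 on day 5. Of the genes called higher around dawn, 163 (48.5%) had their highest mean at CT0, 114 (33.9%) at CT20, 41 at CT4 and 18 at CT16. Of those called lower, 402 (68.5%) peaked at CT12, 126 (21.5%) at CT8, 51 at CT4 and 8 at CT16. Over all kept genes 14.7% peaked at CT0, 12.6% at CT20, 14.9% at CT12 and 20.1% at CT8, and the call itself favours peaks within the higher window. The count rested on single arrays, since it was 371 without the 84 h array, 398 without the 108 h array, 452 without the 72 h array and 596 without the 116 h array. It was also 476 when each side was fitted as 1 group of 4 arrays, where differences between the times of a side count as spread.

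The 10 genes with the largest rise around dawn, among called genes whose arrays did not overlap, differed by 1.77 to 2.48. At2g27420 had 6.69, 6.33, 7.59 and 7.40 around dawn and 5.22, 5.55, 3.63 and 3.69 around dusk, a difference of 2.48 ± 0.16 (SE, adjusted p = 0.000120). All 4 of its dawn arrays lay above its dusk arrays, and within the dusk side the CT8 arrays were higher than the CT12 arrays. TBL26, of the TRICHOME BIREFRINGENCE-LIKE family of cell wall proteins, had 7.56, 7.43, 7.36 and 6.81 around dawn and 5.10, 5.34, 5.41 and 5.13 around dusk (difference 2.05 ± 0.19, SE, adjusted p = 0.000745). CSLA01, a cellulose synthase-like gene, had 6.62, 6.57, 6.6 and 6.41 around dawn and 4.46, 5.42, 3.88 and 4.19 around dusk (difference 2.06 ± 0.34, SE, adjusted p = 0.00814). The dawn arrays of CSLA01 lay close together, and of its dusk arrays the 104 h array was highest and still below every dawn array. In TBL26 the 96 h array was the lowest of the dawn side. MES18, a methyl esterase, differed by 1.78 ± 0.16 (SE, adjusted p = 0.000529). At1g73325, At3g24460, At5g42760 and At2g15020 differed by 2.18, 2.17, 1.83 and 1.79, with adjusted p of 0.000175 to 0.00158. UF3GT, a UDP-glycosyltransferase of flavonoids, and At4g14090 completed the 10, with differences of 1.81 ± 0.34 (SE, adjusted p = 0.0151) and 1.77 ± 0.35 (SE, adjusted p = 0.0186). Their calls were lost when single arrays were left out, for UF3GT without the 72, 84, 92 or 108 h array (adjusted p of 0.0521 to 0.0668) and for At4g14090 without the 72, 80, 84, 92 or 108 h array (0.0600 to 0.0795).

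The 10 largest falls ran from -2.33 to -3.16. SEN1, a gene induced by darkness and in senescence, had 5.43, 4.73, 3.78 and 4.5 around dawn and 7.53, 7.41, 7.93 and 8.19 around dusk (difference -3.16 ± 0.21, SE, adjusted p = 0.000120), the largest called difference of all kept genes. No dawn array came near the dusk arrays, although the dawn arrays spread widely among themselves. PIF4, a transcription factor that promotes growth of the hypocotyl, had 4.36, 5.28, 5.28 and 5.41 around dawn and 7.67, 7.99, 7.89 and 8.04 around dusk (difference -2.81 ± 0.20, SE, adjusted p = 0.000145). Its dusk arrays lay close together, and the 92 h array stood below the other dawn arrays. PRR7 had 3.52, 3.65, 3.91 and 4.04 around dawn and 6.04, 6.11, 6.20 and 6.08 around dusk (difference -2.33 ± 0.11, SE, adjusted p = 2.13e-05). It was below the expression threshold of 4.5 on every dawn array and above it on every dusk array. MYBL2, a repressor of anthocyanin synthesis, had 5.40, 5.58, 5.55 and 5.94 around dawn and 7.57, 8.22, 8.01 and 8.02 around dusk (difference -2.34 ± 0.18, SE, adjusted p = 0.000210). COL5, a CONSTANS-like B-box gene, had 6.09, 6.43, 7.10 and 7.22 around dawn and 8.89, 9.27, 9.02 and 9.03 around dusk (difference -2.35 ± 0.14, SE, adjusted p = 0.000101). CIPK20, a protein kinase that interacts with calcineurin B-like calcium sensors, had 3.34, 3.64, 4.88 and 4.81 around dawn and 6.90, 6.94, 6.34 and 6.45 around dusk (difference -2.49 ± 0.15, SE, adjusted p = 0.000101). In both of these genes the CT20 arrays were the lowest of the 8. At1g80440, a kelch repeat F-box gene (KFB20), differed by -2.57 ± 0.17 (SE, adjusted p = 0.000122), and At3g55240, At1g23390 and At3g15450 by -2.95, -2.42 and -2.41. None of the 10 calls was lost in any alternative fit, each array left out in turn included.

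**Figure D1:**
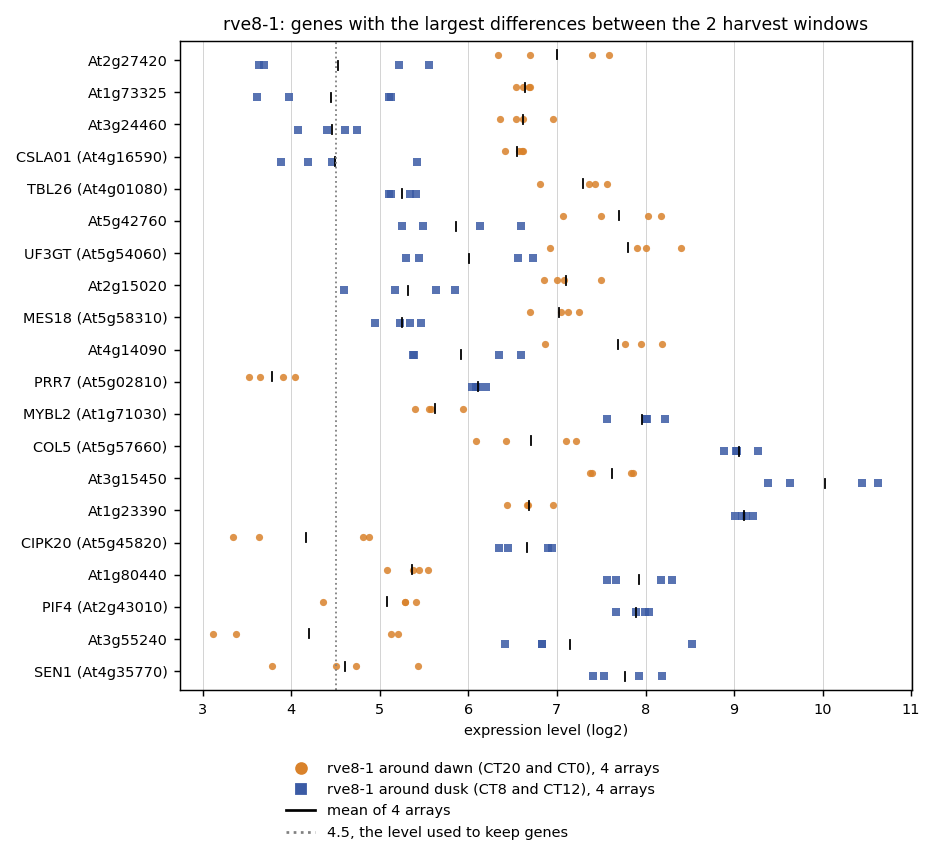
Levels (log2, horizontal axis) of the 10 genes with the largest rise and the 10 with the largest fall around dawn in rve8-1. Orange points are the 4 arrays around dawn, blue squares the 4 arrays around dusk, black lines their means and the dotted line the level of 4.5 used to keep genes; in each gene the points of the windows are separated, by the rule that chose the genes, with SEN1 at 3.78 to 5.43 around dawn and 7.41 to 8.19 around dusk.

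Clock genes of the morning and day were split between the windows. Of 16 genes on this list 15 were kept, of which 4 were higher around dawn, 7 lower and 4 not called, with a median difference of -0.15 (all kept genes, -0.032, 4.85% called). The 4 that rose were all MYB-related factors of the CCA1 and RVE family. RVE2, also known as CIR1, had 9.05, 9.17, 8.46 and 8.93 around dawn and 7.08, 6.85, 8.09 and 8.0 around dusk (difference 1.4 ± 0.16, SE, adjusted p = 0.00167), without overlap. ASG4, a close relative of RVE8, had 5.18, 4.87, 6.11 and 6.69 around dawn and 5.05, 5.36, 3.28 and 4.3 around dusk (difference 1.22 ± 0.22, SE, adjusted p = 0.0135), and there the CT20 arrays lay within the range of the dusk arrays. LHY had 6.6, 5.87, 8.0 and 7.73 around dawn and 6.49, 7.17, 4.94 and 5.76 around dusk (difference 0.96 ± 0.23, SE, adjusted p = 0.0425), and its windows overlapped too. RVE1, which links the clock to auxin synthesis, differed by 0.80 ± 0.15 (SE, adjusted p = 0.0140), again with overlap. Between CT20 and CT8, ASG4, LHY and RVE1 differed by -0.18, -0.59 and -0.06, none of them called. Their rises came from CT0 minus CT12, with 2.61, 2.51 and 1.67, all called. The call of LHY was lost without the 72, 80, 84, 92 or 96 h array (adjusted p of 0.0773 to 0.155) and with the day as a replicate block (0.0638), and that of RVE1 without the 72 or 84 h array (0.0566 and 0.0614).

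CCA1 did not pass the test. It had 5.55, 5.50, 7.2 and 7.07 around dawn and 6.30, 6.83, 5.03 and 5.68 around dusk, a difference of 0.37 ± 0.17 (SE, adjusted p = 0.319), with the CT20 arrays inside the range of the dusk arrays. The single times told more than the windows, since CCA1 was 1.78 higher at CT0 than at CT12 (adjusted p = 0.00318), and its difference between CT20 and CT8 was -1.04 (adjusted p = 0.0684). RVE4 and their relatives At5g52660 and At4g01280 were not called either, with differences of -0.15, -0.01 and 0.32.

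The 7 genes of this list that were lower around dawn were PRR7, PRR9, RVE7 and the 4 LNK genes, which encode coactivators of RVE8 and its relatives. PRR9, the first of the pseudo-response regulators to be expressed in a day, had 3.38, 3.86, 4.05 and 4.49 around dawn and 5.71, 5.61, 5.01 and 4.67 around dusk (difference -1.31 ± 0.18, SE, adjusted p = 0.00414). Like PRR7, it was below the expression threshold of 4.5 on every dawn array and above it on every dusk array. RVE7 had 5.77, 5.35, 5.97 and 5.85 around dawn and 7.16, 7.58, 7.34 and 7.45 around dusk (difference -1.65 ± 0.13, SE, adjusted p = 0.000296), and like PRR7 and PRR9 its windows did not overlap. LNK3 had 5.06, 5.34, 7.81 and 7.79 around dawn and 8.44, 8.39, 6.51 and 7.21 around dusk (difference -1.14 ± 0.16, SE, adjusted p = 0.00459). LNK4 had 4.99, 5.50, 7.66 and 7.97 around dawn and 8.85, 8.80, 7.2 and 7.90 around dusk (difference -1.66 ± 0.20, SE, adjusted p = 0.00190). LNK2 had 5.19, 5.43, 7.43 and 7.10 around dawn and 7.53, 8.11, 6.53 and 7.01 around dusk (difference -1.01 ± 0.16, SE, adjusted p = 0.00668). In these 3 genes the CT0 arrays lay within the range of the dusk arrays, and CT20 differed from CT0 by -1.95 to -2.60. LNK1 had 4.72, 5.04, 6.34 and 6.10 around dawn and 6.93, 7.23, 6.49 and 6.74 around dusk (difference -1.30 ± 0.12, SE, adjusted p = 0.000745), and only this LNK gene had windows that did not overlap. With each side fitted as 1 group of 4 arrays the LNK calls were lost, with adjusted p of 0.0948 for LNK1, 0.297 for LNK4, 0.453 for LNK2 and 0.549 for LNK3, as were those of ASG4, RVE1 and LHY (0.303, 0.272 and 0.505). No LNK, PRR7, PRR9, RVE2 or RVE7 call was lost when 1 array was left out.

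**Figure D2:**
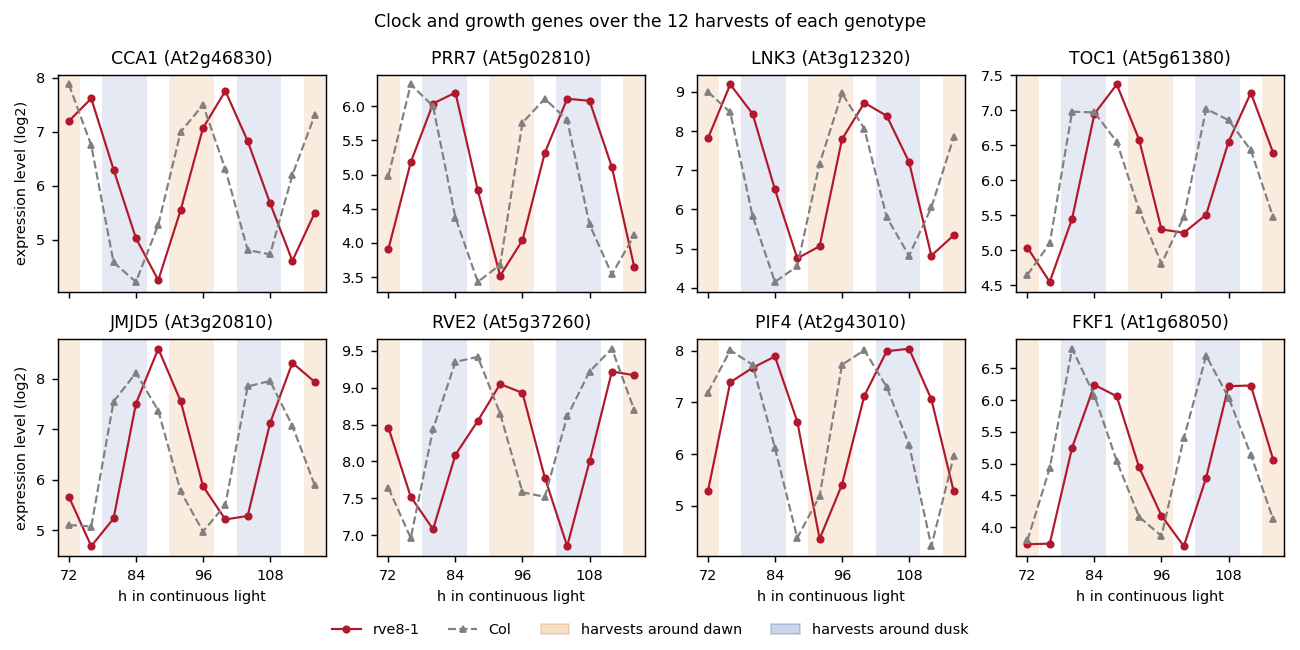
Levels (log2, vertical axis) of 8 clock and growth genes over the 12 harvests from 72 to 116 h in continuous light (horizontal axis), in rve8-1 (red circles) and Col (grey triangles), 1 array per point. Orange bands mark the harvests around dawn and blue bands those around dusk; PRR7 and PIF4 of rve8-1 are low in every orange band and high in every blue band, whereas CCA1, LNK3, TOC1 and JMJD5 cross from low to high or back within a band.

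Of the 13 evening clock genes, all kept, 0 were higher around dawn and 5 lower (1.77% and 3.09% of all kept genes), with a median difference of -0.28. PRR5 had 5.39, 5.38, 4.07 and 4.37 around dawn and 5.30, 5.72, 6.57 and 6.28 around dusk (difference -1.16 ± 0.14, SE, adjusted p = 0.00184). GI, a large protein that stabilizes other clock proteins, had 4.11, 4.75, 4.04 and 4.11 around dawn and 4.86, 4.90, 5.86 and 5.56 around dusk (difference -1.04 ± 0.15, SE, adjusted p = 0.00454). LUX, the DNA-binding member of the evening complex, had 6.01, 5.83, 5.0 and 5.53 around dawn and 6.18, 5.99, 6.94 and 6.86 around dusk (difference -0.90 ± 0.13, SE, adjusted p = 0.00442). FKF1, a blue-light sensing F-box protein, had 4.94, 5.06, 3.73 and 4.18 around dawn and 5.25, 4.78, 6.24 and 6.22 around dusk (difference -1.15 ± 0.14, SE, adjusted p = 0.00168). CHE, a TCP factor that represses CCA1, had 7.93, 8.09, 8.01 and 8.31 around dawn and 9.0, 8.76, 8.88 and 8.82 around dusk (difference -0.78 ± 0.12, SE, adjusted p = 0.00611). The windows of GI and CHE did not overlap, while in PRR5, LUX and FKF1 the CT20 arrays reached the level of the lower dusk arrays. With each side fitted as 1 group of 4 arrays only the call of CHE was held, and the adjusted p was 0.0671 for GI, 0.137 for LUX, 0.148 for PRR5 and 0.193 for FKF1. The other 8 genes, not called, were TOC1, PRR3, JMJD5, ELF3, ELF4, BOA, ZTL and LKP2.

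Several of these evening genes had large differences at single times that cancelled in the mean of a window. TOC1 had 6.58, 6.39, 5.04 and 5.30 around dawn and 5.45, 5.51, 6.95 and 6.55 around dusk, with a window difference of -0.28 ± 0.16 (SE, adjusted p = 0.442). JMJD5, which encodes a Jumonji-domain protein of the clock, had 7.56, 7.94, 5.66 and 5.87 around dawn and 5.23, 5.28, 7.51 and 7.12 around dusk (difference 0.47 ± 0.16, SE, adjusted p = 0.141). In both genes the CT20 arrays and the CT12 arrays were high, and the CT0 and CT8 arrays were low. Accordingly JMJD5 was 2.50 higher at CT20 than at CT8 (adjusted p = 0.00120) and differed by -1.55 between CT0 and CT12 (adjusted p = 0.00447). PRR3 likewise had 1.28 between CT20 and CT8 (adjusted p = 0.0243) and -1.79 between CT0 and CT12 (adjusted p = 0.00190), and TOC1 had 1.01 (adjusted p = 0.0674) and -1.58 (adjusted p = 0.00481). ELF3, ELF4 and BOA had window differences of 0.14, -0.30 and 0.20, and the F-box genes ZTL and LKP2 of -0.04 and 0.02.

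The phytochrome-interacting factors (PIFs) are transcription factors, some of which promote growth of the hypocotyl, and 3 of them were among the genes called lower around dawn. Of 14 genes on the list 11 were kept, and 0 were higher around dawn and 5 lower (1.77% and 3.09% of all kept genes). The 5 were PIF4, PIF5, PIF1, HFR1 and IAA29, and the list had a median difference of -0.51 and 1 positive value. PIF5 had 5.91, 6.08, 7.28 and 6.99 around dawn and 7.70, 8.26, 7.64 and 7.78 around dusk (difference -1.28 ± 0.14, SE, adjusted p = 0.00121). IAA29, an auxin response gene, had 4.45, 4.98, 3.83 and 4.05 around dawn and 6.20, 5.51, 6.44 and 6.15 around dusk (difference -1.75 ± 0.19, SE, adjusted p = 0.00126). HFR1, a bHLH protein that restrains PIFs, had 4.66, 4.56, 4.58 and 4.84 around dawn and 6.07, 5.85, 6.23 and 6.17 around dusk (difference -1.42 ± 0.17, SE, adjusted p = 0.00199). None of the windows of PIF4, PIF5, PIF1, HFR1 and IAA29 overlapped, as was the case for 80.0% of all called genes. Of the 11 kept genes of the list, called or not, 6 had windows that did not overlap, beside 9.44% of all kept genes. The call of PIF1 (difference -0.63 ± 0.14, SE, adjusted p = 0.0374) was lost without any 1 of the 72, 84, 92, 96, 104, 108 and 116 h arrays (adjusted p of 0.0687 to 0.144), and that of PIF5 only with 1 group per side (adjusted p = 0.0616). PIF3 and PIF7 were not called, with differences of -0.13 and -0.45, nor were the growth genes IAA19 (-0.51), ATHB2 (-0.40) and XTH15 (-0.46). Of 10 photoreceptor genes 1 was called, beside 4.85% of all kept genes. It was PHOT1 of the blue-light receptors, with -0.69 ± 0.13 (SE, adjusted p = 0.0140). That call was lost without the 84 or 116 h array (adjusted p of 0.0521 to 0.0724).

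Genes of phenylpropanoid and flavonoid synthesis make pigments and sunscreens of the seedling, and 12 of the 20 kept were called higher around dawn. Of the 22 genes on the list, 0 were called lower and 8 of those kept were not called, with a median difference of 0.87 and 17 positive values, beside 1.77% of kept genes called higher. The list was chosen with earlier results of these data known. Along the pathway, the genes of the general phenylpropanoid steps were not called apart from 4CL3, with PAL1 at 0.56, PAL2 at 0.43, C4H at 0.43 and 4CL1 at 0.31. PAL3, PAL4 and 4CL2 were not called either, and not all of these had a positive difference. 4CL3, whose ligase feeds flavonoid synthesis, had 6.96, 6.57, 6.64 and 6.4 around dawn and 5.31, 5.92, 5.46 and 5.52 around dusk (difference 1.09 ± 0.20, SE, adjusted p = 0.0142).

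The early flavonoid steps followed. CHS, chalcone synthase and the entry enzyme of the pathway, had 10.85, 10.28, 11.10 and 10.46 around dawn and 9.72, 10.07, 9.16 and 9.25 around dusk (difference 1.13 ± 0.24, SE, adjusted p = 0.0267). F3H, flavanone 3-hydroxylase, had 9.12, 8.57, 9.47 and 9.08 around dawn and 7.95, 8.24, 7.46 and 7.59 around dusk (difference 1.25 ± 0.20, SE, adjusted p = 0.00787). CHI, chalcone isomerase, differed by 0.84 ± 0.14 (SE, adjusted p = 0.00777), F3'H, the flavonoid 3'-hydroxylase, by 1.36 ± 0.31 (SE, adjusted p = 0.0348) and FLS1, flavonol synthase, by 0.82 ± 0.11 (SE, adjusted p = 0.00379). The late steps towards anthocyanins had the widest spread. DFR, dihydroflavonol reductase, had 9.48, 8.43, 10.17 and 9.79 around dawn and 8.50, 8.61, 6.52 and 6.78 around dusk (difference 1.87 ± 0.32, SE, adjusted p = 0.0105). LDOX, leucoanthocyanidin dioxygenase, had 7.70, 6.78, 8.53 and 8.24 around dawn and 7.27, 7.01, 5.19 and 5.59 around dusk (difference 1.55 ± 0.27, SE, adjusted p = 0.0105). In both, the CT12 arrays were far below all others, the 116 h array was the lowest of the dawn side and the CT8 arrays reached the dawn range, so that the windows overlapped. The flavonol glycosyltransferase genes UGT78D1 and UGT78D2 differed by 0.91 ± 0.11 (SE, adjusted p = 0.00158) and 1.2 ± 0.14 (SE, adjusted p = 0.00158).

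Of the regulators, MYB111, an activator of flavonol genes, had 6.27, 5.84, 6.32 and 6.4 around dawn and 5.32, 4.97, 4.56 and 4.88 around dusk (difference 1.27 ± 0.13, SE, adjusted p = 0.000945), without overlap. MYB75, also called PAP1, an activator of anthocyanin genes, differed by 1.2 ± 0.29 (SE, adjusted p = 0.0458), with the 80 h array inside the dawn range. MYB12 was not called (-0.16), and MYBL2, a repressor that was not on the list, was lower around dawn, as given above. The count of 12 called genes was 6 without the 84 h array, 7 without the 72 h array, 8 without the 92 h or the 108 h array and 10 to 13 without any other. The calls of CHI, F3H, UGT78D1, UGT78D2 and MYB111 were lost in no alternative fit. Calls were lost without 1 array for 4CL3 (72, 84, 92 or 108 h, adjusted p of 0.0521 to 0.0634), CHS (72, 80, 84, 92 or 108 h, 0.0832 to 0.105) and F3'H (72, 80, 84, 92, 104 or 108 h, 0.0767 to 0.134). The same held for DFR (72 or 84 h, 0.0502 and 0.0504), LDOX (84 h, 0.0523) and MYB75 (72, 84, 92, 96, 104, 108 or 116 h, 0.0778 to 0.169). With 1 group per side DFR, LDOX, MYB75 and FLS1 were not called (adjusted p of 0.0576 to 0.182).

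**Figure D3:**
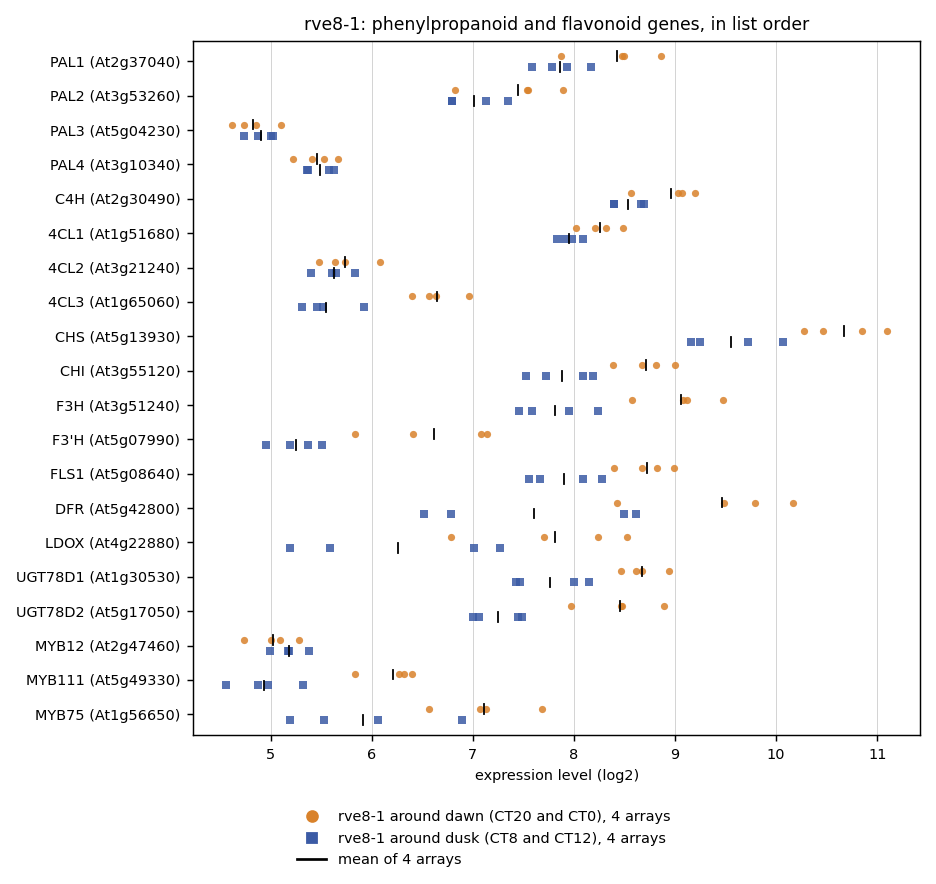
Levels (log2, horizontal axis) of the 20 kept genes of phenylpropanoid and flavonoid synthesis and its regulators in rve8-1, in the order of the list. Orange points are the 4 arrays around dawn, blue squares the 4 arrays around dusk and black lines their means; 17 genes have the higher mean around dawn, with DFR at 8.43 to 10.17 around dawn and 6.52 to 8.61 around dusk.

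Among 16 kept genes of the light-harvesting antenna, 1 was called higher around dawn and 6 lower (1.77% and 3.09% of all kept genes), with a median difference of -0.29. The gene that rose was LHCB4.3, an atypical antenna gene, which had 8.81, 8.45, 8.48 and 8.74 around dawn and 7.23, 7.32, 6.65 and 6.83 around dusk (difference 1.61 ± 0.13, SE, adjusted p = 0.000286). The 6 genes that fell encode common antenna proteins of both photosystems. LHCB1.4 had 11.26, 10.91, 12.17 and 11.99 around dawn and 12.49, 12.65, 12.68 and 12.60 around dusk (difference -1.02 ± 0.11, SE, adjusted p = 0.00125), and LHCB2.3 had 10.78, 10.66, 12.21 and 11.95 around dawn and 12.37, 12.37, 11.95 and 12.03 around dusk (difference -0.78 ± 0.12, SE, adjusted p = 0.00583). In both the CT20 arrays were the lowest, and in LHCB2.3 the CT0 arrays lay within the dusk range. LHCA1, LHCB3, LHCB4.2 and LHCB2.1 were also called, with differences of -0.53, -0.48, -0.45 and -0.61. Probes of near-identical LHCB genes can share signal, so single members are uncertain. Under 1 group per side all 6 falls lost their call, and the 6 became 2 without the 84 h or the 108 h array, 3 without the 80, 92, 96 or 104 h array 4 without the 116 h array and 5 without the 72 h array. The calls of LHCB1.4 and LHCB2.3 were held without any single array, that of LHCA1 was lost without the 84 or 108 h array (adjusted p of 0.0521 to 0.0571), and LHCB4.2 was lost without any 1 of the 8 (0.0526 to 0.0958). LHCB3 was lost without the 80, 84, 92, 96, 104 or 108 h array (0.0521 to 0.0859), and LHCB2.1 without these or the 116 h array (0.0952 to 0.162). Of 16 genes of chlorophyll synthesis, 0 were higher around dawn and 2 lower, both encoding light-dependent protochlorophyllide oxidoreductases. PORA had 4.37, 5.10, 4.33 and 5.09 around dawn and 6.33, 6.30, 6.31 and 6.93 around dusk (difference -1.75 ± 0.23, SE, adjusted p = 0.00330). PORB differed by -0.63 ± 0.12 (SE, adjusted p = 0.0144), a call lost without the 72, 84, 92 or 108 h array (adjusted p of 0.0513 to 0.0672). The third such gene, PORC, differed by 0.09, and the magnesium chelatase genes CHLH, CHLD and CHLI1 by -0.29, -0.17 and -0.07.

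Of 18 genes of starch breakdown 1 was higher around dawn and 1 lower (median difference, 0.05), beside 1.77% and 3.09% of all kept genes. BAM3, the main beta-amylase of leaf starch breakdown, had 9.96, 9.68, 9.16 and 9.06 around dawn and 7.66, 7.95, 8.79 and 8.42 around dusk (difference 1.27 ± 0.17, SE, adjusted p = 0.00296). AMY3, an alpha-amylase of the chloroplast, had 5.97, 5.96, 5.25 and 5.20 around dawn and 6.26, 6.34, 7.11 and 6.99 around dusk (difference -1.08 ± 0.09, SE, adjusted p = 0.000317), lost with 1 group per side (adjusted p = 0.064). Between CT0 and CT12 alone, 7 of the 18 were lower at CT0 (4.26% of all kept genes were called in either direction), among them DPE1 (-1.35, adjusted p = 0.00262) and PHS2 (-1.55, adjusted p = 0.00263), and without the 92 h array 4 genes were called lower around dawn. Of 13 genes of starch synthesis 2 were higher around dawn. GBSS1, which makes amylose, had 8.29, 7.77, 9.35 and 8.95 around dawn and 8.20, 8.24, 6.46 and 7.09 around dusk (difference 1.09 ± 0.19, SE, adjusted p = 0.00975), lost with 1 group per side (adjusted p = 0.304). PGM1 differed by 0.44 ± 0.10 (SE, adjusted p = 0.0349), lost without the 72, 80, 84, 92, 96, 104 or 108 h array (adjusted p of 0.0832 to 0.130).

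In the cold response, 10 of 14 genes were kept, 0 were higher around dawn and 3 lower (1.77% and 3.09% of all kept genes), and 0 had a positive difference (median, -0.46). CBF3, a transcription factor that switches on cold-regulated genes, had 4.29, 5.10, 4.26 and 4.43 around dawn and 6.32, 5.36, 6.52 and 6.30 around dusk (difference -1.61 ± 0.23, SE, adjusted p = 0.00412). CBF2 differed by -1.05 ± 0.23 (SE, adjusted p = 0.0299) and RD29A, a target of the CBFs, by -0.76 ± 0.14 (SE, adjusted p = 0.0149). CBF2 was lost without the 72, 80, 84, 92, 108 or 116 h array (adjusted p of 0.0525 to 0.124) and RD29A without the 72, 80 or 84 h array (0.050 to 0.0746). With 1 group per side the adjusted p was 0.0508 for CBF2 and 0.391 for RD29A. Without the 72, 80 or 84 h array 1 gene of the list was called lower, and without the 96 h array 6 genes. The CBF genes are close copies, and their probes may not separate them. Of 10 kept flowering-time genes, 1 was higher and 2 lower around dawn, beside 1.77% and 3.09% of all kept genes (median difference, 0.18). COL1 had 7.59, 7.60, 8.20 and 8.01 around dawn and 7.04, 7.64, 6.36 and 6.64 around dusk (difference 0.93 ± 0.14, SE, adjusted p = 0.00626), and CDF3, a repressor of CONSTANS, had 5.44, 5.67, 6.33 and 6.04 around dawn and 7.06, 7.46, 6.89 and 6.86 around dusk (difference -1.2 ± 0.12, SE, adjusted p = 0.000806). COL1 was lost with 1 group per side (adjusted p = 0.119). CO itself differed by 0.61 (adjusted p = 0.0842) and FT by 0.34 (adjusted p = 0.306). At1g69570 was called at -0.48 ± 0.12 (SE, adjusted p = 0.0473), and this call was lost without any 1 of the 8 arrays (adjusted p of 0.0506 to 0.194).

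The window comparison is the mean of the differences between 2 pairs of times that lie 12 h apart and share no arrays. Between CT20 and CT8, 286 genes were called (1.5%), 104 of them higher at CT20 and 182 lower. Between CT0 and CT12, 810 genes were called (4.26%), 327 of them higher at CT0 and 483 lower. The lists had 98 genes in common, 34.3% of the smaller and 12.1% of the larger, and 9 of these had opposite directions, JMJD5 and PRR3 among them. Of the genes called between CT0 and CT12, 256 had the opposite sign between CT20 and CT8, and of those called between CT20 and CT8, 75 had the opposite sign between CT0 and CT12. Named genes fell into several kinds. PRR7 (-2.50 and -2.17), PIF4 (-3.01 and -2.62) and MYBL2 (-2.41 and -2.27) were called in both pairs with similar values, CT20 minus CT8 given first. FKF1 (-0.02 and -2.28), PRR5 (-0.12 and -2.20), GBSS1 (-0.19 and 2.37) and LDOX (0.10 and 3.0) were called between CT0 and CT12 only. LNK4 (-3.58 and 0.27), BBX28 (-3.33 and -0.72) and LNK2 (-2.51 and 0.49) were called between CT20 and CT8 only. The difference between the pairs was not itself tested. Of the 20 flavonoid genes, 1 was called higher at CT20 than at CT8 and 12 higher at CT0 than at CT12. The count for CT20 against CT8 was 38 without the 116 h array, 47 without the 80 h, 113 without the 92 h, 116 without the 104 h and 121 without the 84 h or 108 h array. The count for CT0 against CT12 was 151 without the 84 h array, 262 without the 108 h, 278 without the 72 h and 404 without the 96 h array.

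**Figure D4:**
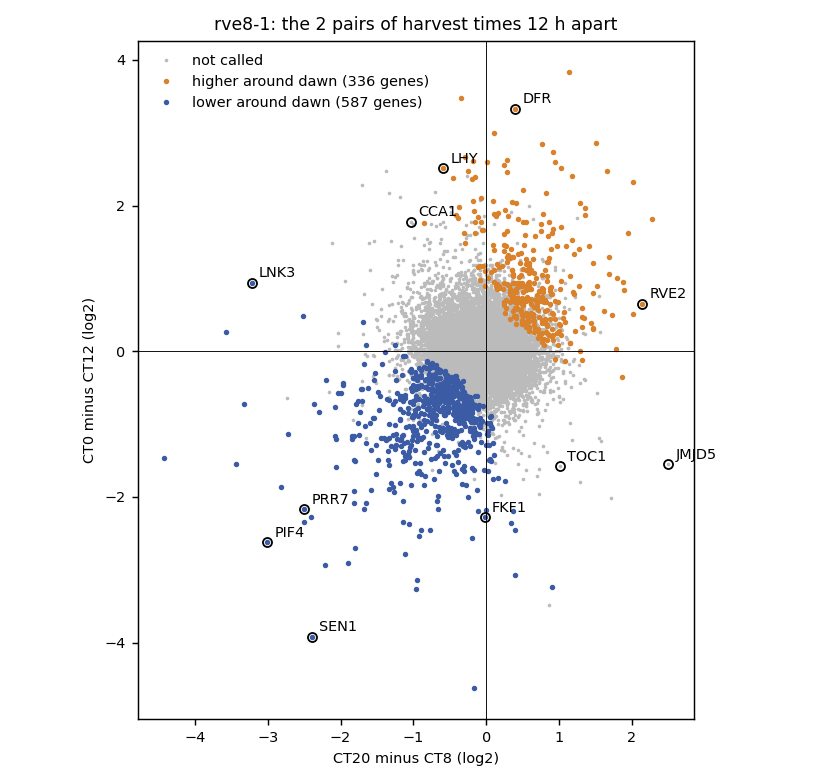
Differences of all kept genes in rve8-1 (log2), CT20 minus CT8 on the horizontal axis and CT0 minus CT12 on the vertical axis, 1 point per gene. Orange points are the 336 genes called higher around dawn, blue points the 587 called lower and grey points genes not called; circles mark named genes, with PRR7 and PIF4 low in both pairs and CCA1, LNK3, TOC1 and JMJD5 in the quadrants where the pairs have opposite signs.

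Within the sides few genes passed the test, with 2 arrays against 2 in each comparison. Few calls do not show that a side was uniform. In a principal component analysis of the 12 rve8-1 arrays, the first component held 35.9% of the variance. On it the CT20 arrays lay at 17.47 and 21.35 and the CT0 arrays at -10.79 and -30.38. The CT8 arrays lay at -36.66 and -2.68 and the CT12 arrays at 16.11 and 6.11. On the second (18%) all dawn arrays were positive and all dusk arrays negative. Between CT20 and CT0, 13 genes were called (0.0684%), 3 higher at CT20 and 10 lower, and 2265 had an unadjusted p under 0.05. The lower ones included all 4 LNK genes, from -2.60 for LNK3 (adjusted p = 0.0115) to -1.34 for LNK1 (adjusted p = 0.0306), along with COL2, BBX18, LHCB2.3, BETA-OHASE 2, At1g13650 and At4g27360. The higher ones were JMJD5 (1.98, adjusted p = 0.0190), CCL and the aldolase gene FBA5. Between CT8 and CT12, 5 genes were called (0.0263%), with COL2, BBX18, At1g13650 and At3g16175 higher at CT8 and JMJD5 lower (-2.06, adjusted p = 0.0311), and 1512 had an unadjusted p under 0.05. Some of these genes lie outside the rule for named genes and were chosen after their values were seen. COL2 had 6.77, 6.74, 8.82 and 8.62 around dawn and 8.0, 8.26, 5.88 and 6.59 around dusk, and its window difference of 0.55 was not called (adjusted p = 0.0740). Without 1 array of the side concerned, at most 1 gene was called in either of these comparisons, and without the 72 h or 96 h array 8 genes were called between CT8 and CT12.

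Each difference of rve8-1 was then set against that of Col at the same hours. In the 12 Col arrays, 2862 of the same genes were called between the windows (15%), 1177 higher around dawn and 1685 lower. Of the 923 genes called in rve8-1, 485 were called in Col as well, 52.5% of the rve8-1 calls and 16.9% of the Col calls, 421 in the same direction and 64 in the opposite one. In a fit of all 24 arrays the difference itself differed between the genotypes in 785 genes (4.13%), with rve8-1 minus Col positive in 388 and negative in 397, and without the 108 h rve8-1 array in 518 genes. PRR7, PIF4, MYBL2 and COL5, which separated the windows without overlap in rve8-1, had Col differences of -0.48, -0.31, 0.04 and 0.13, none of them called in Col, and all 4 differed between the genotypes by -1.85, -2.50, -2.38 and -2.47 (adjusted p of 0.000201 or less). SEN1 did not (-1.39, adjusted p = 0.103).

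The largest differences between the genotypes were those of LNK3 and LNK4. LNK3 averaged 6.50 ± 1.51 around dawn and 7.64 ± 0.94 around dusk in rve8-1 (SD, n = 4 each, with 2 times in each mean), against 8.24 ± 0.90 around dawn and 5.15 ± 0.82 around dusk in Col, a genotype difference of -4.23 ± 0.37 (SE, adjusted p = 1.18e-05). LNK4 (difference -4.08 ± 0.35, SE, adjusted p = 1.08e-05), CIPK20 (difference -3.72 ± 0.34, SE, adjusted p = 1.72e-05), BBX28 (difference -3.48 ± 0.24, SE, adjusted p = 2.42e-06) and LNK2 (difference -3.39 ± 0.29, SE, adjusted p = 1.13e-05) followed. Each of these was lower around dawn in rve8-1 and higher around dawn in Col. At the other end, At1g07050 differed by 3.32 ± 0.52 (SE, adjusted p = 0.00122), JMJD5 by 2.91 ± 0.21 (SE, adjusted p = 2.42e-06), At5g23240, a DNA J protein gene, by 2.73 ± 0.38 (SE, adjusted p = 0.000476), BT2, a BTB and TAZ domain gene, by 2.35 ± 0.39 (SE, adjusted p = 0.00186) and COL9, a CONSTANS-like gene, by 2.34 ± 0.25 (SE, adjusted p = 4.75e-05). Of these 5, only At5g23240 was called between the windows of rve8-1 (difference -1.17 ± 0.25, SE, adjusted p = 0.0279), a call lost without the 72, 80, 84, 92, 104, 108 or 116 h array (adjusted p of 0.0614 to 0.112).

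By group, the dawn minus dusk difference of 13 of 15 morning and day clock genes differed between the genotypes, beside 4.13% of all kept genes. In 12 this difference was lower in rve8-1 than in Col, and only in RVE2 (2.16) was it higher. Of 13 evening clock genes 8 differed, 7 with a higher dawn minus dusk difference in rve8-1 and CHE (-0.76) with a lower one. GI, PRR5, ELF4, ZTL and LKP2 were not called. Of 20 flavonoid genes 1 differed, MYB111, which had 6.20 ± 0.25 around dawn and 4.94 ± 0.31 around dusk in rve8-1, against 5.44 ± 0.51 around dawn and 5.54 ± 0.42 around dusk in Col (difference 1.37 ± 0.19, SE, adjusted p = 0.000546). CHS averaged 10.67 ± 0.37 around dawn and 9.55 ± 0.42 around dusk in rve8-1, against 10.62 ± 0.36 around dawn and 9.47 ± 0.29 around dusk in Col, with a genotype difference of -0.03 ± 0.31 (SE, adjusted p = 0.982). Of the antenna genes 10 of 16 differed, 9 of them with a lower dawn minus dusk difference in rve8-1. Of the PIF and growth genes 5 of 11 differed, all 5 with a lower difference in rve8-1. Of the starch breakdown genes 8 of 18 differed, all 8 with a higher difference in rve8-1.

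The rve8-1 difference was also set against Col at circadian times 4 h earlier, CT16 and CT20 (88, 92, 112 and 116 h) minus CT4 and CT8 (76, 80, 100 and 104 h). The shift was one of circadian time, since no Col array preceded the 72 h harvest, and the 116 h Col array stood in its place. In this comparison 0 of 19018 genes were called (0.0%), and 1115 had an unadjusted p under 0.05. LNK3 then differed between the genotypes by -0.50 (adjusted p = 0.905), JMJD5 by 0.44 (0.849), PIF4 by 0.01 (0.998), CIPK20 by -0.17 (0.963) and MYB111 by 0.11 (0.956). A p that misses the threshold does not show that the genotypes were alike. The standard error of such a difference was 0.37 for LNK3. The paper read its delay of about 4 h from these same arrays, so closeness after the shift is partly built in. The comparison covers only the difference between windows, and a change of level shared by both sides would not be seen.

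**Figure D5:**
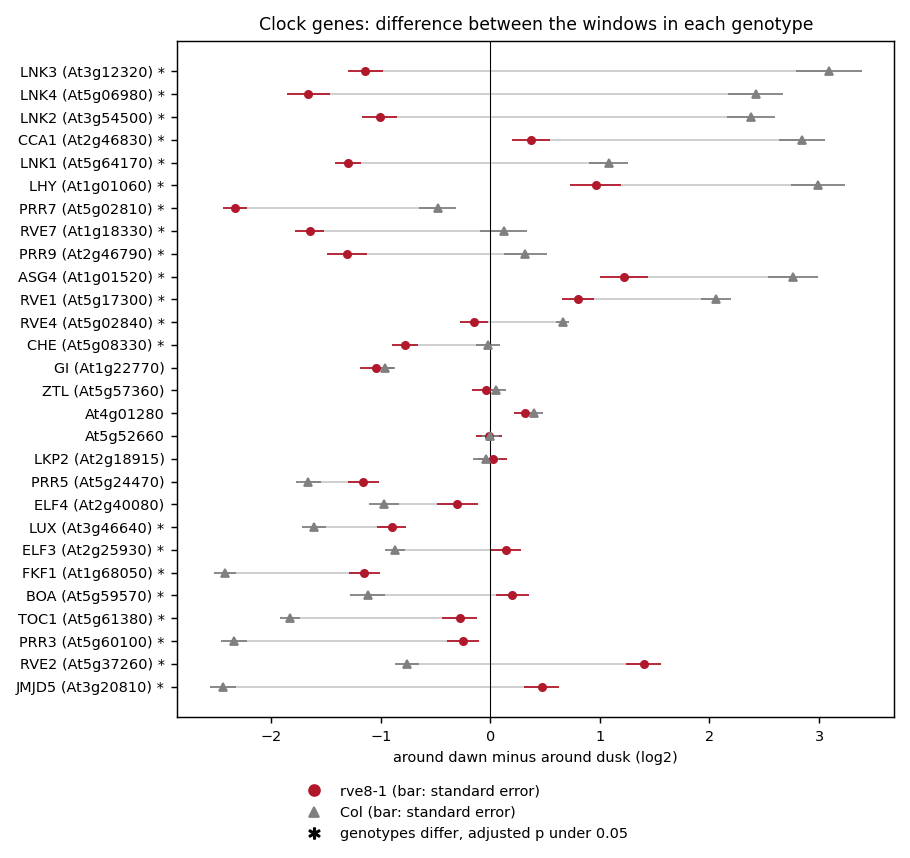
Difference between the windows, around dawn minus around dusk (log2, horizontal axis), of the 28 kept clock genes in rve8-1 (red circles) and Col (grey triangles), with bars of 1 standard error. Genes are sorted by rve8-1 minus Col, and asterisks mark an adjusted p under 0.05 for that difference; LNK3 lies at -1.14 in rve8-1 and 3.09 in Col, and JMJD5 at 0.47 in rve8-1 and -2.44 in Col.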

How the data were processed

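The authors hybridized RNA of each sample to an AGRONOMICS1 tiling array, masked poorly performing probes, and used RMA for background correction, normalization and summarization to 1 value for each TAIR9 gene. The authors deposited 1 log2 value per gene and array, in a single table with 0 columns of other samples. No further normalization was applied here, and no scanner intensities or promoter sequences were used. For arrays, their number limits the precision. Genes were named by locus, with 29715 of 30237 identifiers matched to a RefSeq locus tag of TAIR10.1. Because the array used another annotation, no coordinates are given, and a locus with several probe sets (208 loci) was represented in the lists by its brightest.

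Genes above 4.5 in at least 4 of the 12 rve8-1 arrays passed the filter. Means of the 6 circadian times were fitted to the 12 rve8-1 arrays with limma 3.58.1 in R 4.3.3 (6 residual and 3.88 prior degrees of freedom), and contrasts were tested two-sided with Benjamini-Hochberg adjustment over all kept genes at 0.05. Genotypes were compared in a fit of all 24 arrays (12 residual degrees of freedom), and Col alone in a fit of its 12 arrays. Correlations of the day 5 minus day 4 deviations over the 15 pairs of circadian times had a median of -0.141 (-0.341 to 0.548). Of these, 4 were over 0.1 and 9 under -0.1, and the day was not entered as a block in the reported fit. The scripts were tested on simulated data with independent noise and a constant shift of each changed gene on all dawn arrays. Differences between the times of a side and drift between days were not simulated. Python 3.11.15, numpy 2.4.6, pandas 2.3.3 and matplotlib 3.10.9 were used for tables and figures.

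The windows and gene lists were chosen with earlier results of these data known. Genes were named by a rule. It took the 10 largest positive and 10 largest negative differences among called genes whose windows did not overlap, the 5 largest of each sign in the genotype comparison, and members of the lists. Alternatives covered the filter, scaling, variance prior, day block, threshold, model and each array left out, and those for single circadian times were added after seeing the data. An array left out leaves its circadian time with 1 array, assumed to vary like the others.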

Additional observations from a re-analysis of the deposited data

Results flagged for a closer look

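Each group of 4 arrays pooled different circadian times, so the usual rate of Dixon's test, about 1 group in 20 by chance, does not apply. Where the times of a group differ, a deviating array can be missed. In 5 of 176 groups, 1 array stood apart from the other 3 by this test. Around dawn these were PIF4 on the 92 h array (4.36), GI on the 116 h array (4.75) and PGM1 on the 92 h array (8.03). Around dusk they were At1g69570 on the 84 h array (4.57) and PORA on the 108 h array (6.93).

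The dawn minus dusk difference was tested between rve8-1 and Col in limma, and it differed in 785 genes and in 53 of the 88 genes reported. All values below are rve8-1 minus Col on the log2 scale, and a negative one means a lower dawn minus dusk difference in rve8-1.

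Among morning and day clock genes the values were -4.23 for LNK3, -4.08 for LNK4, -3.39 for LNK2, -2.38 for LNK1, -2.47 for CCA1, -2.03 for LHY, -1.85 for PRR7 and -1.62 for PRR9. In the RVE family they were -1.77 for RVE7, -1.54 for ASG4, -1.25 for RVE1, -0.81 for RVE4 and 2.16 for RVE2. Evening clock genes had 2.91 for JMJD5, 2.08 for PRR3, 1.55 for TOC1, 1.32 for BOA, 1.27 for FKF1, 1.01 for ELF3, 0.71 for LUX and -0.76 for CHE. Flowering-time genes had 2.34 for COL9, -1.93 for CDF3, -1.05 for COL1 and -0.68 for At1g69570. PIF and growth genes had -2.54 for PIF5, -2.50 for PIF4, -1.05 for HFR1 and -0.77 for PIF1.

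The antenna genes had -2.22 for LHCB2.3, -1.34 for LHCB1.4, -1.34 for LHCB2.1, -0.83 for LHCB3, -0.82 for LHCB4.2, -0.80 for LHCA1 and 0.96 for LHCB4.3. MYB111 of the flavonoid list had 1.37, and the starch genes BAM3, PGM1 and GBSS1 had 1.90, 1.02 and -1.72. RD29A of the cold response had 1.38. Other genes with large differences were CIPK20 (-3.72), BBX28 (-3.48), At3g55240 (-2.61), COL5 (-2.47), MYBL2 (-2.38), At1g23390 (-1.98) and At1g80440 (-1.41). On the positive side they were At1g07050 (3.32), At5g23240 (2.73), BT2 (2.35), MES18 (1.95) and TBL26 (1.46).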

How the results depend on the processing

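The count of 923 genes between the windows was 575 with no filter, 476 with 2 groups of 4 arrays, 1884 with all 24 arrays in the fit, 328 at an adjusted p under 0.01 and 237 with a difference of at least 1 log2 unit. It lay between 868 and 1007 with median centring, quantile normalization, the stricter filter or a trend and robust prior, at 745 with the day as a replicate block and at 1336 with a 24 h cosine. Without 1 array it ranged from 371 to 750. The count of 785 genes between the genotypes was 394 at an adjusted p under 0.01 and 518 to 811 without 1 array, and that of 0 against Col at circadian times 4 h earlier was 0 to 1, with 1 gene called without the 92 h rve8-1 array. Between CT20 and CT8, the 286 became 82 with no filter, 435 with the stricter filter, 169 with the replicate block, 64 at an adjusted p under 0.01 and 38 to 227 without 1 array. Between CT0 and CT12, the 810 became 478 with no filter, 299 at an adjusted p under 0.01 and 151 to 819 without 1 array. Between CT20 and CT0, the 13 became 1 with no filter, 40 with the stricter filter, 45 with a trend and robust prior, 0 at an adjusted p under 0.01 and 0 to 12 without 1 array. Between CT8 and CT12, the 5 became 0 with no filter, quantile normalization, the replicate block or an adjusted p under 0.01, 10 with the stricter filter, 13 with a trend and robust prior and 0 to 8 without 1 array. The causes were not tested. Of the 73 reported genes called between the windows, 34 were called in every alternative fit and 39 were not, 0 changed direction, and 22 lost the call when 1 array was left out. Of the 15 that were not called, 7 did not keep their result in every alternative fit, and 5 changed sign. With quantile normalization At5g52660 differed by 0.05 and ZTL by 0.02, and without 1 array the differences ran from -0.50 to 0.19 for BT2, -0.02 to 0.38 for COL9, -0.11 to 0.10 for At5g52660, -0.16 to 0.08 for ZTL and -0.10 to 0.14 for LKP2.

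The replicate block paired arrays by day, although correlations of same-day deviations were over 0.1 in only 4 of 15 pairs of times and under -0.1 in 9. Among named genes the block ended the calls of LHY (adjusted p = 0.0638), PIF1 (adjusted p = 0.0597), LHCB2.1 (adjusted p = 0.0756) and PGM1 (adjusted p = 0.0619), and no other named call. With 2 arrays per time, the number of arrays limits the precision. Promoter motifs were not described.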

Other observations

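Several lists held no gene called between the windows of rve8-1 in limma, beside 4.85% of all kept genes. Of the 12 genes of glucosinolate synthesis, 0 were called and 2 had an unadjusted p under 0.05, with a median difference of 0.00. MYB28, a regulator of the pathway, had the largest value of that list, with 8.74 to 9.12 around dawn and 8.34 to 8.65 around dusk (difference, 0.39, adjusted p = 0.0929). CYP79F1, an enzyme of its aliphatic branch, differed by 0.07. Of the 9 genes of wounding and jasmonate, 0 were called and 1 had an unadjusted p under 0.05 (median, 0.11), with LOX2, of jasmonate synthesis, at 0.41 and VSP2, a jasmonate response gene, at -0.20. Of 7 heat shock genes 3 were kept, 0 were called and 1 had an unadjusted p under 0.05 (median, 0.31). That gene was HSP70, with 6.64 to 7.18 around dawn and 6.30 to 6.49 around dusk (difference, 0.54, adjusted p = 0.0810).

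No gene of the organelle genomes passed the test in the fit of the 12 rve8-1 arrays. Of 67 chloroplast genes 63 were kept, 0 were called and 0 had an unadjusted p under 0.05, with a median difference of -0.12, and their mean level per array lay between 7.49 and 8.45 around dawn and between 8.09 and 8.24 around dusk. Without the 92 h array 3 chloroplast genes were called lower around dawn. Of 33 mitochondrial genes 16 were kept, 0 were called and 0 had an unadjusted p under 0.05 (median, -0.01). The 4 stomatal markers had a median difference of -0.03 and a mean level of 5.72 to 5.99 around dawn and 5.80 to 5.91 around dusk. The 3 vascular markers had a median of -0.13, with 6.55 to 6.72 around dawn and 6.66 to 6.71 around dusk. The 4 shoot meristem markers, 3 of them kept, had a median of 0.16, with 4.53 to 5.03 around dawn and 4.59 to 4.72 around dusk, and 1 was called higher without the 92 h array. Of 5 flower and seed markers only CRA1, a seed storage protein gene, was kept (-0.48, adjusted p = 0.291).

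BAM5, a beta-amylase, differed by 0.91 ± 0.80 (SE, adjusted p = 0.644), with 4.90 to 7.74 around dawn and 3.36 to 7.33 around dusk, and its windows overlapped. IRT1, the iron transporter of root epidermis, had 5.90 to 7.63 around dawn and 7.79 to 8.79 around dusk (difference, -1.36 ± 0.35, SE, adjusted p = 0.0607) without overlap and did not pass the test. With the day as a replicate block 1 root marker was called lower.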
